A study of Mus musculus with 5 samples.

Results

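Collagen chain genes are the genes whose symbol reads Col, a type number, a and a chain number. They were picked by that pattern alone, and 44 of the 27729 genes in the deposited tables carry such a symbol. All 44 are described here through their RNA in mouse embryonic fibroblasts (MEFs), connective tissue cells of the embryo, while these cells were kept in 5C medium, which is used to convert them towards neuron-like cells. The 44 genes were sorted by the form of their protein into 11 fibrillar, 6 basement membrane (type IV), 2 multiplexin, 9 FACIT, 4 transmembrane, 6 beaded filament (type VI), 3 short-chain network and 3 other genes.

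A collagen molecule is built of 3 chains that wind into a triple helix, and each chain repeats the triplet Gly-X-Y, with glycine at the inner side of the helix. X and Y are often proline and hydroxyproline, and the enzymes that hydroxylate proline need vitamin C, which is a component of 5C medium. Fibrillar collagens form the rope-like fibrils of connective tissue, FACITs sit on the surface of those fibrils, type IV forms the sheet of the basement membrane, and type VI forms beaded threads between cells and fibrils. Fibroblasts are the classical source of types I, III, V and VI.

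MEFs were prepared from ICR mouse embryos whose head and internal organs had been removed, and RNA was taken on day 0, in medium with fetal bovine serum, and on days 2, 5, 10 and 14 of 5C medium. The 5C medium is DMEM/F12 with N2 supplement, bFGF, LIF, vitamin C and 2-mercaptoethanol, without serum, and the wells were coated with Matrigel, a gel made from basement membrane proteins. In the labels the medium is named 6C, with 5000 cells in each well, and the treatment text beside them names day 15 where the label of the last sample reads day 14. There was 1 TruSeq library of total RNA per time point, so no difference between days has a replicate check, no p-value is given, and intervals cover counting error only. Wherever 5 values follow each other, they stand for days 0, 2, 5, 10 and 14 in this order.

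The expected counts, which are RSEM's estimates of the reads from each gene, had totals from 2253748 (day 2) to 3890334 (day 0). Normalized counts are expected counts scaled by TMM library sizes, and a log2 change is the ratio of 2 normalized counts after adding 1 to each. A minimum of 10 expected counts in at least 1 library was reached by 38 of the 44 genes and by 13346 of all genes, and only these enter numbers of genes over 2-fold higher or lower. Gm42418 alone took 4.79% of the counts on day 2 and between 0.0484% and 0.109% on the other days. Fibroblast genes marked every library, with a summed normalized count over 12 markers between 45768 and 58607. Day 0 held 29392 normalized counts of Vim and 13458 of Fn1, but 102 of Dcn and 23.8 of Lum, which encode small proteoglycans of collagen fibrils. Genes of Schwann cells and neural crest, whose sum was 115 on day 0, reached 11233 on day 14, and all 10 of them were over 2-fold higher on days 10 and 14. In RNA of whole cultures, fewer cells of one type and less RNA per cell cannot be told apart.

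Gly-X-Y repeats are visible in the coding sequences, and 4 stretches are shown because Col1a1 and Col3a1 led the family by level, Col2a1 showed its largest fall and Col4a1 stands for the basement membrane. Each is read from the GENCODE M21 transcript with the longest coding sequence (GRCm38), 5′ to 3′ on the coding strand, and capitals mark every codon that starts with GG, which codes for glycine. The first 3 are exons of 54 bases, the usual exon size of fibrillar collagen genes, and hold 6 triplets each. They lie in exon 8 of Col1a1 at chr11:94939904-94939957 (plus strand), exon 6 of Col3a1 at chr1:45325360-45325413 (plus strand) and exon 10 of Col2a1 at chr15:97996489-97996542 (minus strand). The last lies within exon 21 of Col4a1 at chr8:11235147-11235200 (minus strand) and holds a break of 2 codons in the repeat.
Col1a1: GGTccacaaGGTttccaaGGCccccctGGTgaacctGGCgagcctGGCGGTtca
Col3a1: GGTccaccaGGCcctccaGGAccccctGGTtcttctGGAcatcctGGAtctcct
Col2a1: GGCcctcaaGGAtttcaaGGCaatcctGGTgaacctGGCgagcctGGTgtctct
Col4a1: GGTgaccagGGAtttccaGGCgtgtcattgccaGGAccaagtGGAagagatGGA

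The unbroken repeat was longest in the fibrillar genes. The longest run of Gly-X-Y triplets spanned between 216 and 344 triplets in the 11 fibrillar genes, with 338 in Col1a1 and 344 in Col3a1. In the 6 basement membrane genes it spanned between 39 and 66, and the repeat was divided into between 23 and 27 runs. Exons of exactly 54 bases numbered between 21 and 33 in each fibrillar gene, but between 1 and 3 in each basement membrane gene and 0 in the 3 short-chain genes. These counts describe the genes and were not compared with the changes by a test.

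On day 2, collagen chain genes were found both above and below day 0, and from day 5 on more of them were higher than lower. At 2-fold, 12 of the 38 genes were above day 0 on day 2 and 13 were below it, against 15.2% and 13.1% of all genes tested. Among these, the higher Col6a5 and Col6a6 and the lower Col9a1 rested on 3 or fewer counts in both libraries, which leaves 10 higher and 12 lower. On day 5 there were 18 higher and 6 lower, against 20.2% and 13.6% of all genes. On day 10 there were 21 higher and 4 lower, against 28.7% and 22.3%, and on day 14 there were 20 higher and 4 lower, against 24.5% and 19.9%. Among those higher on day 10, Col6a5, Col6a6, Col9a1, Col9a2, Col22a1, Col24a1, Col25a1, Col26a1 and Col28a1 had fewer than 10 counts on day 0. They passed the filter through later libraries alone, so the filter partly set their direction. The filter was the same for all genes tested. The median log2 change of the 38 genes was −0.18, 0.85, 1.38 and 1.16 on days 2, 5, 10 and 14, beside −0.03, 0.05, 0.14 and 0.07 for all genes tested. By TPM, a unit per gene length that is explained with the shares, 5 genes were higher and 11 lower on day 2, 21 and 3 on day 5, 31 and 3 on day 10, and 28 and 4 on day 14. By TPM the median of all genes tested was −0.20, 0.61, 1.09 and 0.78, and after subtracting it 6 genes were higher and 11 lower on day 2, 16 and 6 on day 5, 17 and 4 on day 10, and 19 and 4 on day 14.

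**Figure D1:**
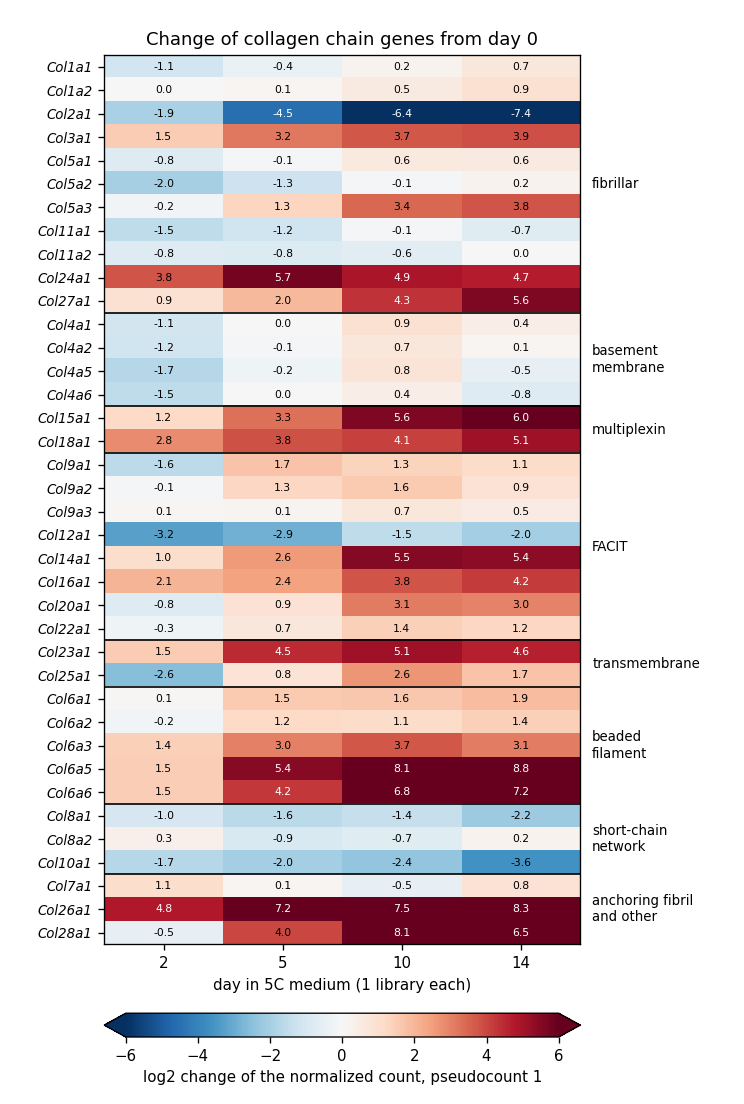
Log2 change of the normalized count from day 0 (colour and printed value) of the 38 collagen chain genes that reached 10 expected counts, in rows by group, on days 2, 5, 10 and 14 in columns, 1 library each. The 4 basement membrane genes are lower on day 2 and within 2-fold of day 0 on the later days, the 2 multiplexin genes and the 5 type VI genes are high from day 5 on, and Col2a1 falls to −7.35 on day 14.

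By the sign of the change alone, most of the 38 genes took 1 of 3 courses. Col14a1, Col15a1, Col16a1, Col18a1, Col3a1, Col27a1 and 8 others, 14 in all, were above day 0 on each later day. Col1a1, Col1a2, Col4a1, Col4a2, Col5a1 and others, 15 in all, were below day 0 on day 2 and above it on day 10. Centred on genes of like length, all of those named were below day 0 on day 10. Col1a2 had a log2 change of only −0.02 on day 2 (−0.07 to 0.03). Among the others, Col9a1, Col9a2, Col25a1 and Col28a1 had 5 or fewer counts on days 0 and 2. Col2a1, Col8a1, Col10a1, Col11a1 and Col12a1 were below day 0 on all 4 later days. The day of the highest normalized count was day 10 for 14 genes and day 14 for 15, and the day of the lowest was day 2 for 18 genes and day 0 for 14.

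Among the steps between neighbouring days, that from day 0 to day 2 held 12 genes higher and 13 lower, and the following step mostly held rises. From day 2 to day 5, 23 of the 38 genes were over 2-fold higher and 2 lower, against 19% and 12.5% of all genes tested. From day 5 to day 10, 14 were higher and 1, Col2a1, was lower, against 12.8% and 9.5%. From day 10 to day 14, Col27a1 and Col7a1 were over 2-fold higher and Col10a1, Col28a1, Col4a5 and Col4a6 were over 2-fold lower, which is 2 and 4 genes against 4.73% and 8.33% of all genes. The day 2 library enters both the step from day 0 to day 2 and that from day 2 to day 5, and carries the smallest number of counts.

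As a share of the counted reads, collagen chain genes held 1.197% on day 0, with a 95% exact binomial (Clopper-Pearson) interval from 1.19% to 1.21%. The shares on the later days were 0.786%, 2.04%, 3.46% and 3.68%. TPM values, which are divided by gene length and so stand for transcripts, gave shares of 0.318%, 0.193%, 0.785%, 1.53% and 1.53%. On both scales the share was lowest on day 2 and highest on days 10 and 14. The 2 scales come from the same counts, and neither share is corrected for shifts of all genes. By TPM the median log2 change of all genes tested was −0.20, 0.61, 1.09 and 0.78 on days 2, 5, 10 and 14. By normalized counts it was 0.92 on day 10 for genes of 4200 bases or more. The 5 most abundant chains held between 60.5% on day 10 and 70.2% on day 0 of the collagen TPM. The number of chains above 100 TPM was 10, 5, 12, 17 and 17.

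**Figure D2:**
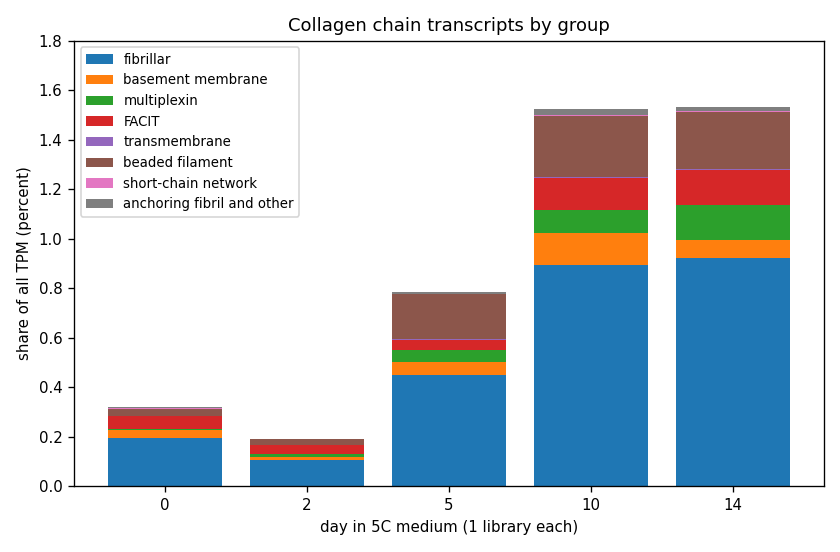
Share of all TPM (percent, y axis) held by collagen chain genes on each day (x axis, 1 library each), stacked by group. The bar is lowest on day 2 at 0.193%, and fibrillar genes make up between 55.7% and 61.1% of each bar.

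Fibrillar genes made up between 55.7% and 61.1% of the collagen TPM in every library, but the leading chain was not the same throughout. Col1a1 led on day 0, Col1a2 on day 2 and Col3a1 on days 5, 10 and 14. Of the 11 fibrillar genes 2 were over 2-fold above day 0 and 4 below it on day 2, 4 above and 3 below on day 5, and 4 above and 1 below on days 10 and 14. These are 18.2% and 36.4% on day 2, against 15.2% and 13.1% of all genes tested. On day 5 they are 36.4% and 27.3%, against 20.2% and 13.6%. On days 10 and 14 they are 36.4% and 9.09%, against 28.7% and 22.3% on day 10 and 24.5% and 19.9% on day 14. The 4 that were above on days 5, 10 and 14 were Col3a1, Col5a3, Col24a1 and Col27a1, where Col5a3 on day 5 had a log2 change of 1.31 and of 0.97 when centred on genes of like length.

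Col3a1 (ENSMUSG00000026043, chr1:45311538-45349706, plus strand of GRCm38) encodes the chain of type III collagen, a fibrillar collagen of elastic tissues and of healing wounds. Its normalized count was 1316, 3756, 11826, 17422 and 19193. The level was higher in each library than in the one before. The log2 change was 1.51 on day 2 (95% counting interval 1.41 to 1.61) and 3.73 on day 10 (3.65 to 3.81). Its TPM was 107, 199, 1981, 3538 and 3381, with a log2 change of 0.88 on day 2, and by TPM it ranked 1322 among all genes on day 0 and 14 on day 10.

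Col1a1 (ENSMUSG00000001506, chr11:94936224-94953042, plus strand) and Col1a2 (ENSMUSG00000029661) encode the chains of type I collagen, the main fibrillar collagen of skin, bone and tendon, which usually joins 2 chains of the first to 1 of the second. The normalized count of Col1a1 was 13963, 6390, 10542, 16110 and 22717. That of Col1a2 was 7548, 7444, 8061, 10899 and 14138. Col1a1 was lowest on day 2, while Col1a2 was near its first level until day 5. Col1a1 was over 2-fold lower on day 2, with a log2 change of −1.13 (−1.18 to −1.07) that was −0.95 when centred on genes of like length, where Col1a2 had a change of −0.02 (−0.07 to 0.03). On day 14 the log2 changes were 0.70 and 0.91, within 2-fold. By TPM they were 1.59 and 1.796, beside a median of 0.78 for all genes tested. By normalized counts the change of Col1a1 on day 5 was −0.41. By TPM it was 0.31, beside a median of 0.61 for all genes tested.

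The TPM ratio of Col1a1 to Col1a2, which does not depend on the scaling between libraries, was 1.66 on day 0 (95% counting interval 1.62 to 1.71). Later it was 0.772 (0.738 to 0.808), 1.18 (1.14 to 1.21), 1.31 (1.29 to 1.34) and 1.44 (1.41 to 1.47) in the order of the days. Day 2 was the only day on which Col1a2 exceeded Col1a1. The ratio of Col3a1 to Col1a1 was 0.130, 0.634, 1.94, 1.65 and 1.36. With 1 fixed length per gene in place of the length RSEM gave in each library, the latter ratios became 0.134, 0.836, 1.60, 1.54 and 1.202, on the same sides of 1.

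**Figure D3:**
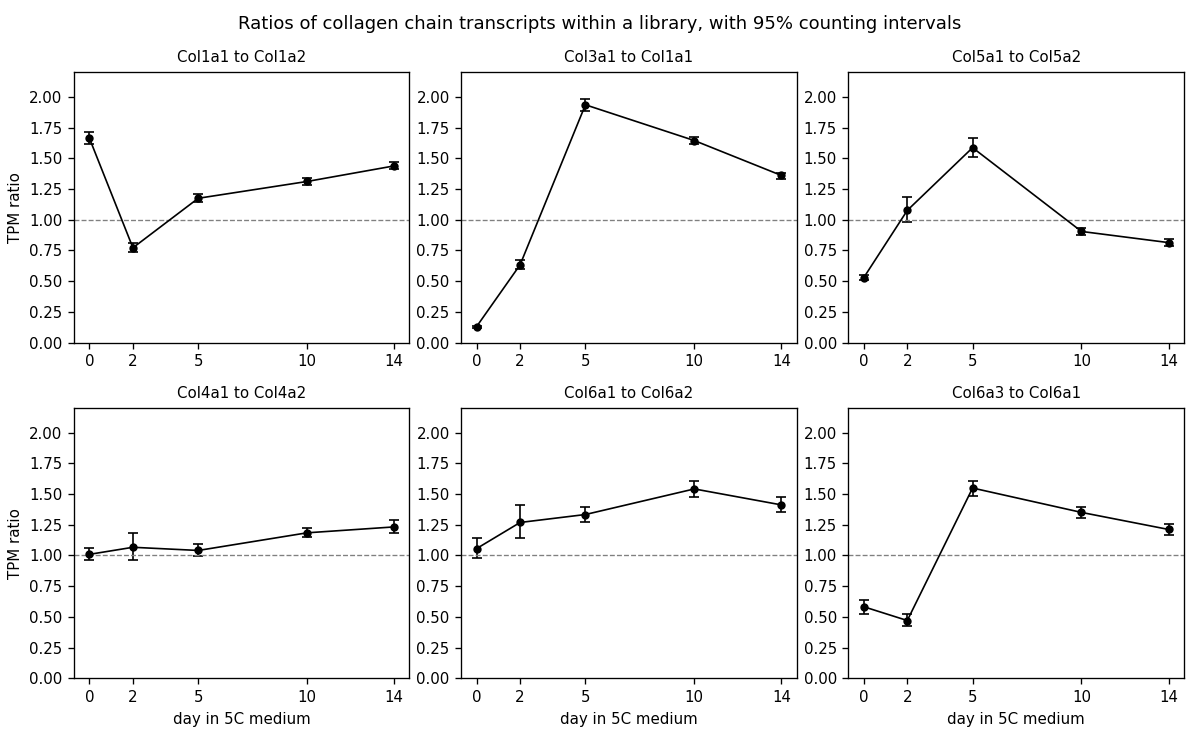
TPM ratios of 6 pairs of chains (y axis) on each day (x axis), with 95% counting intervals as error bars, a dashed line at a ratio of 1 and 1 library per day. Col1a1 to Col1a2 is below 1 on day 2 alone, Col3a1 to Col1a1 is above 1 from day 5 on, and Col4a1 to Col4a2 stays between 1.01 and 1.23.

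Type V collagen, built of chains from Col5a1, Col5a2 and Col5a3, is found inside type I fibrils and limits their width. The normalized count of Col5a1 was 3291, 1905, 3169, 4949 and 4849. That of Col5a2 was 5479, 1391, 2297, 5194 and 6410. Its log2 change was −1.98 on day 2 (−2.09 to −1.87) and −0.08 on day 10. By TPM the day 10 change was 1.09, beside a median of 1.09 for all genes tested. Col5a3 had another course. Its normalized count was 197, 174, 490, 2146 and 2684, a log2 change of 3.76 on the last day (3.56 to 3.98). The TPM ratio of Col5a1 to Col5a2 was 0.529, 1.08, 1.59, 0.905 and 0.814.

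Col27a1 and Col24a1 encode fibrillar chains with shorter helices, which in these transcripts held unbroken runs of 217 and 216 triplets. Col27a1 had normalized counts of 32.7, 63.3, 130, 685 and 1608 over the 5 days, each above the one before, with a log2 change of 5.58 on day 14 (5.13 to 6.17). Col24a1 had 0, 7, 60, 41 and 28 expected counts. Against the 3 counts that a count of 0 allows on day 0, its normalized count on day 5 was at least 17.7-fold higher, with a lower counting limit of 13.9-fold.

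Col2a1 (ENSMUSG00000022483, chr15:97975602-98004695, minus strand) encodes the chain of type II collagen, the fibrillar collagen of cartilage. Its normalized count was 599.7, 157, 25.4, 6.21 and 2.68. It was lower in each library than in the one before, with a log2 change of −1.92 on day 2 (−2.27 to −1.60) and −6.38 on day 10 (−7.68 to −5.61). The last value rests on 3 expected counts, and the normalized count was 224-fold lower than on day 0, with a log2 interval from −10.1 to −6.25. Of the other cartilage collagen chains, Col11a1, which joins type II fibrils, had normalized counts of 238, 83.2, 104, 226 and 143, and Col11a2 had between 14.0 and 25.9. Col10a1, the short-chain collagen of hypertrophic cartilage, had 56.4, 16.3, 13.1, 10.0 and 3.58 and was over 2-fold below day 0 on all 4 later days.

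Cartilage genes outside the family did not share 1 course. The summed normalized count of 8 chondrocyte markers was 118, 119, 131, 203 and 261. Among the defining genes, Acan, the cartilage proteoglycan, had 44.5, 9.05 and 4.38 on days 0, 2 and 5 and no count afterwards. Sox9, the transcription factor of cartilage, lay between 59.3 and 103 on all days, Matn1 had at most 2 counts, and Comp went from 2.97 to 139. Skeletal muscle genes, another cell type that embryo preparations can hold, had sums of 1262, 392, 193, 66.6 and 52.0. The part of these cells in the course of Col2a1 was not tested.

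Type IV collagen genes were lower on day 2 and within 2-fold of day 0 from day 5 on. Col4a1 and Col4a2 encode the chains found in nearly all basement membranes, and Col4a3 to Col4a6 encode chains of special membranes such as those of the kidney. All 4 type IV genes that passed the count filter were over 2-fold below day 0 on day 2, none passed 2-fold in either direction on days 5, 10 and 14, and all 4 were highest on day 10. Of all genes tested 13.1% were over 2-fold below day 0 on day 2. Centred on genes of like length, the change of Col4a1 on day 2 was −0.93, within 2-fold. Col4a3 and Col4a4 had at most 4 counts in any library and were not counted. By TPM the 4 genes were above day 0 on day 5, and on day 10 their log2 changes were 2.09 for Col4a1, 1.86 for Col4a2, 1.30 for Col4a5 and 0.93 for Col4a6. The TPM median of all genes tested was 0.61 on day 5 and 1.09 on day 10.

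The normalized count of Col4a1 (ENSMUSG00000031502) was 3079, 1427, 3054, 5843 and 4032. That of Col4a2 (ENSMUSG00000031503) was 2976, 1305, 2861, 4786 and 3190. The log2 changes on day 2 were −1.11 (−1.22 to −0.996) and −1.19 (−1.31 to −1.07). Their TPM ratio stayed between 1.01 and 1.23, the narrowest range of the pairs compared. The genes start head to head, and in the annotation used here their first exons overlap by 22 bases on opposite strands at chr8:11312805-11312826 (GRCm38).

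Col4a5 and Col4a6 also start head to head, on chromosome X, with 1342 bases between their RefSeq starts. Col4a5 had normalized counts of 127, 37.99, 107, 219.9 and 88.5 over the 5 days, and Col4a6, which had at most 33 expected counts, had 17.8, 5.43, 17.5, 23.6 and 9.83. Both were over 2-fold lower on day 14 than on day 10. The 8 endothelial marker genes, from a cell type rich in type IV collagen, had sums of 275, 71.6, 33.3, 21.4 and 10.7, of which Kdr held 236 on day 0 and at most 6.43 later. Emcn had 34.6, 50.7, 17.5, 1.43 and 3.58, Cldn5 was at 0 in all libraries and Cdh5 at 5.43 or less. The part of endothelial cells in the type IV values was not tested.

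The bases before the starts of Col3a1 and Col4a5 are shown because the former belongs to the chain with the highest TPM from day 5 on and the latter lies between a head-to-head pair of which both genes were lower on day 2. The sequences are from RefSeq (GRCm38.p6), at chr1:45311288-45311537 and chrX:141475169-141475384, both on the plus strand, and end before the starts in RefSeq and in GENCODE. Capitals mark the motifs CCAAT and TATAAA, which were searched on both strands together with GGGCGG.
Col3a1: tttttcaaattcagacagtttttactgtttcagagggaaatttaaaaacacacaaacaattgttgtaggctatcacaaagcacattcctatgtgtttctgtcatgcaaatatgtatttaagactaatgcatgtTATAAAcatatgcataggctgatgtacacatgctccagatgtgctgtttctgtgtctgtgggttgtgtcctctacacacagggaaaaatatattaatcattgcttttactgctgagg
Col4a5: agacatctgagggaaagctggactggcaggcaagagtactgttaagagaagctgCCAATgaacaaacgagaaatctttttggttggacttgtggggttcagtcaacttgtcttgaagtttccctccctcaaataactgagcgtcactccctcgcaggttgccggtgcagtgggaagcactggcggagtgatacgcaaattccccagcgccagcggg

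RefSeq promoters were given for 35 of the 44 genes, with 38 starts. In the 250 bases before the start, CCAAT was found at 13 of these 38 starts (34.2%) and at 33.8% of all 32851 promoters, and TATAAA at 5 (13.2%) and at 12.4%. GGGCGG was found at 22 starts (57.9%) and at 32.7% of all promoters. GGGCGG can overlap a reversed CCAAT by its G bases, and a match describes letters, not a bound site.

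Type XV and type XVIII collagens, the multiplexins, are basement membrane proteins that carry sugar chains, and the end of the type XVIII chain is the source of endostatin. By normalized counts both genes were over 2-fold above day 0 on all 4 later days, where Col15a1 on day 2, with 21 counts, had a log2 change of 1.21 and of 0.59 by TPM. Col18a1 (ENSMUSG00000001435, chr10:77052178-77166548, minus strand) had normalized counts of 267, 1894, 3818, 4620 and 9138. Its log2 change was 2.82 on day 2 (2.63 to 3.02) and 5.09 on day 14 (4.92 to 5.28). Col15a1 had 15.8, 37.99, 165, 808 and 1082, with a log2 change of 6.01 on day 14 (5.39 to 6.91). Both genes were thus highest on day 14, unlike the type IV genes, which were highest on day 10.

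**Figure D4:**
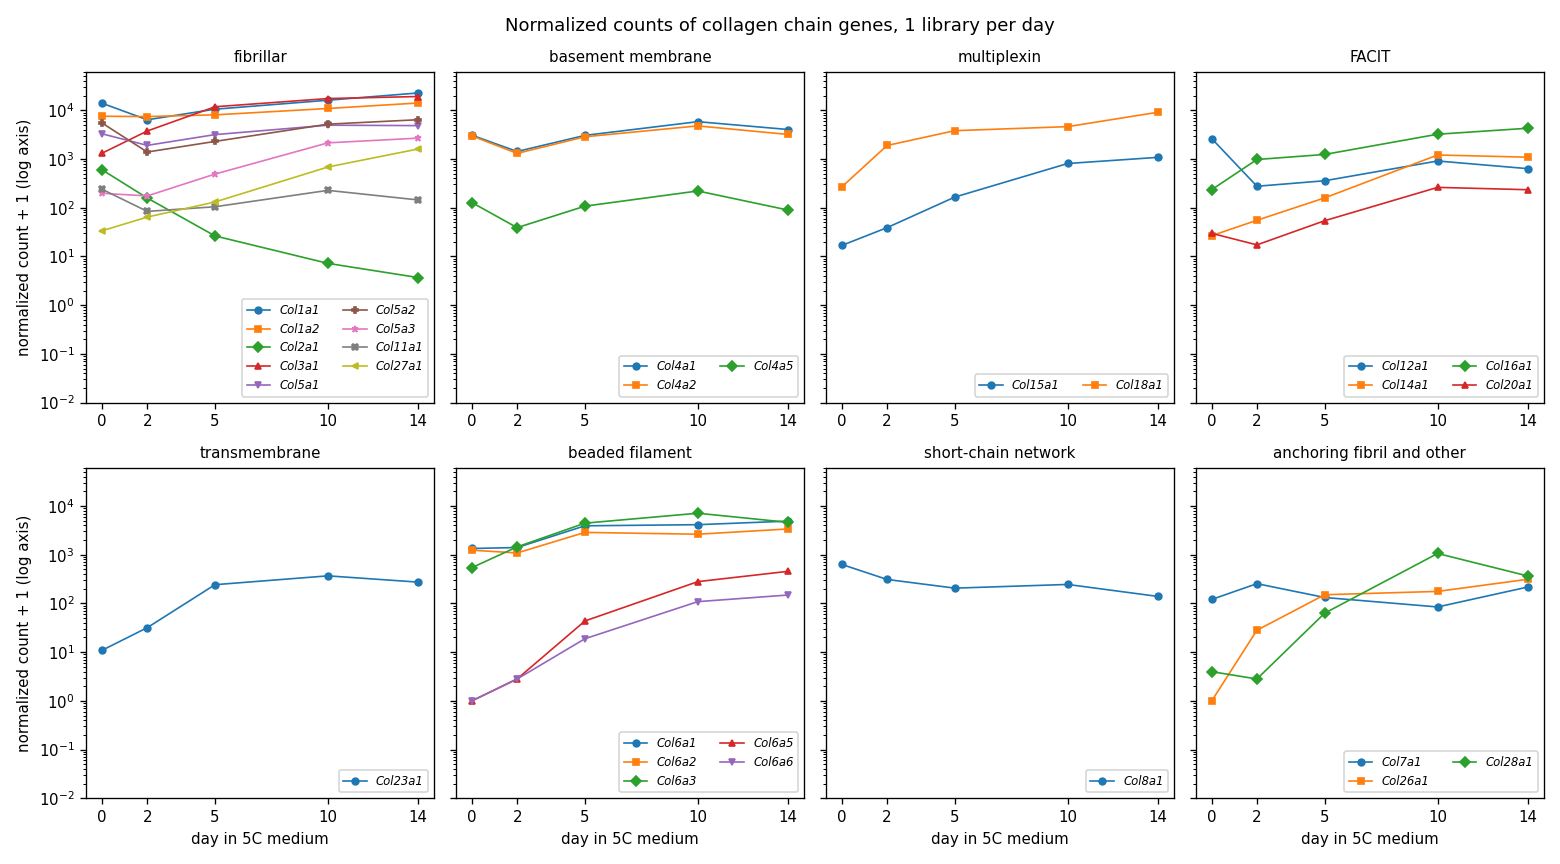
Normalized count plus 1 (y axis, log scale) on each day (x axis) of the 28 collagen chain genes that reached 100 expected counts, in 1 panel per group and with 1 library per day. The lines of Col4a1, Col4a2 and Col4a5 dip on day 2 and peak on day 10, those of Col15a1 and Col18a1 go up throughout, and Col2a1 goes down throughout.

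FACIT genes held both large rises and a large fall. Of the 8 that passed the filter, 4 were over 2-fold above day 0 and 1 below it on day 5, 6 above and 1 below on day 10, and 5 above and 1 below on day 14. These are 50%, 75% and 62.5% above, against 20.2%, 28.7% and 24.5% of all genes tested. On each of these days 12.5% were below, against 13.6%, 22.3% and 19.9%. The lower FACIT gene was Col12a1, which encodes the chain of type XII collagen of dense connective tissue. Its normalized count was 2623, 275, 357, 910 and 633, with a log2 change of −3.25 on day 2 (−3.50 to −3.02). On day 10 the change was −1.53. With a fixed gene length and no centring it was −0.43, where the median of all genes tested was 1.065. By TPM Col12a1 held rank 3 among the 44 chains on day 0 and rank 17 on day 14.

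Col16a1, whose product lies on fibrils and at basement membranes, had normalized counts of 235, 977, 1240, 3229 and 4286 over the 5 days, with a log2 change of 4.19 on day 14 (4.003 to 4.39). Col14a1, whose product binds type I fibrils, had 25.7, 54.3, 158, 1209 and 1090, with a log2 change of 5.50 on day 10 (5.00 to 6.17). Col20a1, which overlaps the annotated gene BX649560.1 by 79 bases, had 28.8, 16.3, 53.2, 261 and 233. Thus these 3 genes had their larger values on days 10 and 14. The others counted as higher, Col9a1, Col9a2 and Col22a1, stayed at low counts. Type IX collagen, the FACIT of cartilage, stayed low, with at most 10 expected counts of Col9a1, 11 of Col9a2 and 42 of Col9a3, which overlaps Tcfl5 on the other strand by 234 bases, in any library, and Col22a1 had at most 28.5. Col19a1 had at most 5 counts and did not pass the filter.

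All 5 type VI genes that passed the filter were over 2-fold above day 0 on days 5, 10 and 14, except that Col6a2, centred on genes of like length, had log2 changes of 0.94 on day 5 and 0.51 on day 10. Of all genes tested 20.2%, 28.7% and 24.5% were over 2-fold higher on these days. Col6a5 and Col6a6, with 1 count or none on days 0 and 2, passed the filter through later libraries alone. Col6a4, with at most 6 counts, did not pass it. The filter thus partly set the direction of Col6a5 and Col6a6. Type VI collagen is built of the chains of Col6a1 and Col6a2 with a further chain, most often that of Col6a3. Col6a1 had normalized counts of 1339, 1402, 3916, 4130 and 4887 over the 5 days, and Col6a2, its neighbour on chromosome 10, had 1235, 1086, 2865, 2630 and 3376. Col6a3 had 542, 1445, 4436, 7097 and 4611. Col6a1 and Col6a2 stayed within 2-fold on day 2, and all 3 were over 2-fold higher on day 5. The log2 changes on day 5 were 1.55 (1.46 to 1.64) for Col6a1, 1.21 (1.12 to 1.31) for Col6a2 and 3.03 (2.90 to 3.16) for Col6a3.

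The value of Col6a3 on day 2 depended on the unit. Its log2 change was 1.41 by normalized counts and −0.50 by TPM, and the length by which RSEM divided its counts was 2864 bases on day 0 and 8954 bases on day 2. The median log2 change of the 5 genes on day 2, 1.41, was that same value and turned to −0.20 by TPM, and 2 of the 5 had 1 count or none on days 0 and 2. The TPM ratio of Col6a3 to Col6a1 was 0.582, 0.470, 1.55, 1.35 and 1.21. With 1 fixed length the ratio was 0.357, 0.909, 0.999, 1.52 and 0.832, so that its order among days 2, 5 and 14 depended on the length used.

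Chains that can stand in for that of Col6a3 are encoded by Col6a4, Col6a5 and Col6a6, which lie side by side on the minus strand of chromosome 9. Col6a5 had 0, 1, 48.6, 391 and 509 expected counts. Col6a6 had 0, 1, 20.4, 151 and 165 expected counts. Both were thus near 0 on days 0 and 2 and present from day 5 on. On the scale of normalized counts, and against 3 counts on day 0, they were at least 153-fold and 49.8-fold higher on day 14, with lower counting limits of 124-fold and 39.9-fold. Col6a4, the neighbour of both, had at most 6 counts in any library.

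Col8a1, the short-chain collagen of vessel walls and the cornea, had normalized counts of 629, 309, 205, 244 and 138. By normalized counts it was over 2-fold below day 0 on all 4 later days, with a log2 change of −2.18 on day 14 (−2.46 to −1.94). By TPM the change was −0.88 on day 5 and −0.19 on day 10, within 2-fold, beside medians of 0.61 and 1.09 for all genes tested. Centred on genes of like length it was −0.84 on day 2. Col8a2, whose product can join it, had between 9 and 21 expected counts, and the TPM ratio of Col8a1 to Col8a2 was 33.8 on day 0 (20.6 to 59.3) and 4.94 on day 14 (3.12 to 8.20).

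Transmembrane collagens, whose chains cross the cell membrane and can be shed, were scarce. Col23a1 had normalized counts of 9.90, 30.8, 241, 367 and 272 over the 5 days, with a log2 change of 5.08 on day 10 (4.32 to 6.28). Col25a1, known from muscle innervation and amyloid plaques, had 5, 0, 11, 50 and 21 expected counts, with a log2 change of 2.63 on day 10 (1.53 to 4.54 for the ratio without a pseudocount). Col13a1 had at most 1 count and Col17a1, the collagen of skin hemidesmosomes, at most 6. In the same libraries the epithelial markers had sums of 50.5, 322, 85.8, 19.3 and 18.8, and Krt5 had at most 1 count.

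Col28a1 and Col26a1 were among the largest changes of the family. Col28a1 (ENSMUSG00000068794, chr6:7997808-8192617, minus strand) encodes a collagen with many breaks in its helix, found around Schwann cells of peripheral nerve. Its expected count was 3, 1, 71, 1481 and 407, and its normalized count 2.97, 1.81, 62.1, 1058 and 364. The ratio of normalized counts on day 10 was 356, with a log2 interval from 6.93 to 10.8, and day 0 held 3 counts. It was over 2-fold lower on day 14 than on day 10.

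Col26a1, which encodes a little studied collagen first found in testis and ovary, had 0, 15, 171, 245 and 349 expected counts. By normalized counts it was at least 105-fold higher on day 14 than the 3 counts that day 0 allows, with a lower counting limit of 85.0-fold. Col7a1, which encodes the anchoring fibrils under the epidermis, had normalized counts of 119.6, 253, 131, 83.5 and 216. Its log2 change on day 2 was 1.08 (0.72 to 1.44). With a fixed gene length it was 0.80, beside a median of −0.18 for all genes tested. On days 5, 10 and 14 Col7a1 stayed within 2-fold by normalized counts, with 0.13, −0.51 and 0.85. By TPM its changes were 1.83, 1.13 and 2.07, beside medians of 0.61, 1.09 and 0.78 for all genes tested.

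Schwann cell and neural crest genes moved over the same days as Col28a1. Their summed normalized count over 10 markers was 115, 221, 1283, 8148 and 11233. Sox10, the transcription factor of that lineage, had 6.93, 21.7, 280, 1055 and 1993. The sum was highest on day 14, where Col28a1 was highest on day 10. Gfap and Gjc3 were at 0 on day 0 and present on each later day. Macrophage genes had sums of 106, 738, 1100, 975 and 774, with all 10 markers over 2-fold higher on days 2 and 5, among them Ptprc with no count on day 0 and 1 on day 2, and Cd5l at 0 on day 0. Of 12 fibroblast genes, Dcn, Lum, Fbln1 and Pdgfra were over 2-fold higher on all 4 later days, and S100a4 and Thy1 were over 2-fold lower on days 10 and 14. Osteoblast genes had sums of 112 on day 0 and 768 on day 14, of which Runx2 held 723. The 3 that passed the count filter (Runx2, Dmp1 and Ibsp) were over 2-fold higher on day 14. Between these days Dmp1 went from 0 to 41 counts. Ibsp went from 1 to 10 and passed the filter through the last library alone. Sp7, Bglap and Alpl, at 6.93 or less on day 0 and at 0 on day 14, did not pass it. The filter thus partly set the direction of the 3, and no direction of the list was read from them. Neuron genes, the aim of the medium, had sums of 711, 416, 425, 334 and 407. On day 14, 3 of the 7 tested (Tubb3, Nefl and Snap25) were over 2-fold higher and 3 (Map2, Stmn2 and Syn1) lower. Tubb3 was at 22.1 on day 0 and 161 on day 14, and Stmn2 at 448 and 163. Nefl had 1.67, 83 and 5 expected counts on days 0, 5 and 14, with a log2 interval from −1.44 to 4.57 on day 14. Snap25 had 0, 22 and 7.01 on these days, and Syn1 had at most 14 on any day. Dcx had 1 count on day 0 and none later, and Rbfox3 had none on any day. The part of each of these cell types in the collagen changes was not tested.

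Genes that make, process and bind collagen were found on both sides of day 0. The list held 44 genes, of which 42 passed the filter. By normalized counts 9 (21.4%) were over 2-fold above and 13 (31.0%) below day 0 on day 10, against 28.7% and 22.3% of all genes tested. On day 14 there were 7 (16.7%) above and 8 (19.0%) below, against 24.5% and 19.9%. By TPM the direction of the list turned, with 19 above and 3 below on day 10 and 14 above and 4 below on day 14, and after subtracting the median of all genes there were 8 above and 11 below on day 10 and 6 above and 7 below on day 14. Prolyl hydroxylation had 2 of 10 genes above on both days, with 5 below on day 10 and 2 below on day 14 by normalized counts, and 2 above and 2 below on both days by TPM. Cross-linking had none of 5 above and 3 below on both days by normalized counts, where by TPM Lox alone was over 2-fold below and 1 gene was above on day 10.

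Among the genes with 100 or more counts, the largest falls were those of Lox, P4ha1 and P4ha3 on both days. Lox, the lysyl oxidase that cross-links collagen, had normalized counts of 7358, 1087, 592, 521 and 447 over the 5 days, with log2 changes of −3.82 on day 10 and −4.04 on day 14. P4ha1, a catalytic subunit of prolyl 4-hydroxylase, had 1114, 666, 369, 256 and 266, and P4ha3, a further such subunit, had 143, 79.6, 49.04, 34.3 and 29.5. The largest rises were those of Adamts2, Bmp1 and Ctsk on both days. Adamts2, which removes the amino end of procollagen, had 79.1, 162, 288, 399 and 512. Bmp1, which removes the carboxyl end, had 605, 896, 1480, 2045 and 3555. Ctsk, the collagen-degrading cathepsin K, had 167, 297, 810, 543 and 653. Serpinh1, the collagen chaperone of the endoplasmic reticulum, lay between 4065 and 5939, within 2-fold of day 0 on each day.

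Collagen chain genes are long, and in these libraries the change of a gene on days 5, 10 and 14 went with its length. The mean length was 4651 bases as the median of the 38 genes and 2525 as that of all genes tested. All genes tested were divided into 5 classes of equal size by length. In the shortest class the median log2 change on day 10 was −1.15, and in the longest, of 4200 bases or more, it was 0.92, with 48.0% of genes over 2-fold higher. Of the 23 collagen chain genes in that longest class, 10 were over 2-fold higher on day 10 and 2 lower, with a median log2 change of 0.79. The median of these 23 was thus below that of their class, while the 15 shorter collagen chain genes had medians between 1.36 and 3.78 in the other classes that held any, where all genes had medians between −0.29 and 0.55. The part of RNA quality or library preparation in this relation was not tested.

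**Figure D5:**
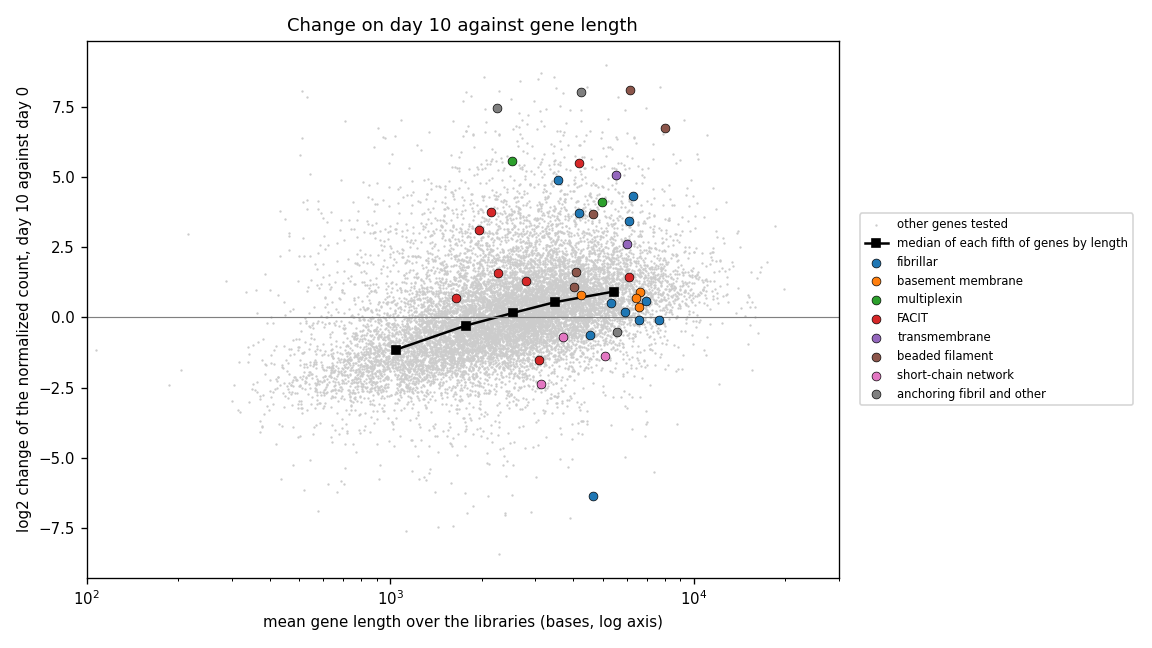
Log2 change on day 10 against day 0 (y axis) and mean gene length in bases (x axis, log scale) for all genes tested (grey), with the median of each of 5 length classes (black squares) and the 38 collagen chain genes by group (coloured). The medians go from −1.15 to 0.92 with length, and collagen genes lie on both sides of them.

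The unit also set the sign of some changes, most of them within 2-fold. Col1a1, Col4a1, Col4a2, Col4a5, Col4a6, Col5a1, Col8a2 and Col11a2 had negative changes on day 5 by normalized counts and positive ones by TPM. So had Col5a2, Col7a1, Col8a2, Col11a1 and Col11a2 on day 10. The TPM median of all genes tested was itself 0.61 on day 5 and 1.09 on day 10. With that median subtracted, the sign differed from normalized counts for Col4a1, Col4a2 and Col5a1 on day 5. On day 10 it then differed for Col4a6, Col7a1, Col9a1 and Col11a2, of which Col9a1, with at most 10 counts, was over 2-fold higher by normalized counts. Centred on genes of like length, 20 of the 38 genes were over 2-fold above and 9 below day 0 on day 10, against 21 and 4 without centring, and Col1a1, Col1a2, Col4a1, Col4a2, Col4a6 and Col5a1 changed sign from positive to negative. Of the genes that were over 2-fold away from day 0 by normalized counts, Col6a3 on day 2 was the only one with another sign by TPM as deposited.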

How the data were processed

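Total RNA was sequenced in 1 library for each of days 0, 2, 5, 10 and 14, and libraries were mapped to days by their labels. As deposited, the expected counts are RSEM's estimated read numbers of each gene, not scaled between libraries. The deposited TPM values take gene length into account and add up to 1000000 in each library, and the deposited FPKM values are per length and per library total. The submitters' processing notes name Bowtie, RSEM and the build mm10, without versions of the tools, and the setting for strand is not given in the sources used here. RSEM weights the length of a gene by its transcripts in each library, so that TPM and normalized counts can differ for the same gene, and lengths of 22 of the 44 genes differed over 1.5-fold between libraries.

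Symbols came from GENCODE M21 (GRCm38) for 27247 of 27729 gene IDs, and promoters were taken from RefSeq. Genes with a minimum of 10 expected counts in at least 1 library were tested against a 2-fold threshold, with TMM library sizes from edgeR 4.0.16 in R 4.3.3, computed on rounded counts, and a pseudocount of 1, which understates the change of low genes. Intervals were computed by the exact Clopper-Pearson method from rounded counts and without a pseudocount, and a count of 0 was taken to allow 3 counts, which is between 0.771 and 1.33 per 1000000 counts. With 1 library per day no test was possible. The computations were tested on simulated data.

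The members follow from their symbols, and members with 100 or more expected counts were described by their value in each library. Of the 44 genes of collagen synthesis and binding, the 3 largest rises and falls on days 10 and 14 among those with 100 or more counts were named, and Serpinh1 was added after its values were seen. Members, lists and alternatives were chosen with earlier results of these data known, and 2 alternatives, a fixed gene length and library sizes without the day 2 library, were chosen after seeing the data. The other alternatives were DESeq2 1.42.0 size factors, TPM, FPKM, other pseudocounts, filters and thresholds, and centring on genes of like length. Scripts ran in Python 3.11.15 (pandas 2.3.3, numpy 2.4.6, matplotlib 3.10.9, scipy 1.17.1).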

Additional observations from a re-analysis of the deposited data

How the results depend on the processing

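The numbers of collagen chain genes over 2-fold from day 0 differed by less than 1.5 times with DESeq2 size factors, with library sizes without the most abundant genes, with library sizes without the day 2 library, with a pseudocount of 5 and with no filter. Above day 0 on day 2 there were 5 genes by TPM, 6 with a fixed gene length, 4 at a 4-fold threshold and 6 whose counting interval lay wholly past 2-fold, in place of 12. Below day 0 on day 2 there were 2 at 4-fold and 7 by interval, in place of 13. Below day 0 on day 5 there were 3 by TPM, 3 with a fixed length and 3 at 4-fold, in place of 6, and on day 10 there were 9 when centred on genes of like length, 2 with a fixed length and 2 at 4-fold, in place of 4. These numbers by TPM and with a fixed length contain the shift of all genes, whose median was not subtracted. With a fixed length that median was −0.18, 0.60, 1.065 and 0.77 on days 2, 5, 10 and 14. The median log2 change of the collagen chain genes on day 10 was 2.63 with a filter of 50 counts, in place of 1.38. The median of the type VI genes on day 2 turned to −0.20 by TPM and the change of Col6a3 to −0.50, and RSEM's length of Col6a3 differed between these libraries. The share of TPM over the 5 days was 0.366%, 0.234%, 0.899%, 1.68% and 1.71% without the most abundant other genes, and 0.314%, 0.204%, 0.726%, 1.55% and 1.495% with a fixed length. The share of counts was 1.35%, 0.959%, 2.29%, 3.74% and 4.02% without the most abundant other genes, and 0.834%, 0.604%, 1.65%, 2.83% and 2.92% without the most abundant collagen chain gene. These shares follow from the genes left out of the total or the sum. Of 980 values of single genes under an alternative, 752 stayed within their counting interval, 227 left it without turning a change over 2-fold, and 1 turned such a change. A filter cannot alter the change of a single gene, so 112 values with a filter of 50 counts and 112 with no filter were bound to stay. The alternatives that use gene length moved more. With groups or chain ratios included, 87 values moved and 55 stayed by TPM. With a fixed length 91 moved and 56 stayed, and 73 moved and 71 stayed when centred on genes of like length. Changes within 2-fold that took the other sign by TPM numbered 3, 8, 5 and 2 on days 2, 5, 10 and 14, with the median of all genes not subtracted. Depth limits the low genes: Col4a6, with 3 counts on day 2, had a log2 interval from −4.12 to 0.06. No paired analysis was possible because each day has 1 library.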
